A study of Rattus norvegicus and Mus musculus with 18 samples.

Results

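The genes described here are 10 macrophage markers, Adgre1, Cd68, Mrc1, Csf1r, Csf1, Lyz2, Cd163, Fcgr1, Arg1 and Cd14, in the healing skin wounds of mice. They were taken by symbol from a mouse table of 49548 genes, and all 10 were found. Expression was measured by SMART-seq2, which copies polyadenylated RNA into full-length cDNA before sequencing, in 3 libraries of wound dermis and 3 of wound epidermis. All 6 came from adult mouse skin wounds 1 day after the scab came off, a stage that the study's description ties to new hair follicle formation in mice. The labels used here give no strain, genotype, sex or treatment beyond the wound. Nor do they tie the libraries to individual mice, so the p-values measure library-to-library spread, which may be technical. The rat libraries of the series were not analysed here.

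Macrophages are phagocytes that arise from blood monocytes or are seeded in tissues before birth, and they depend on the growth factor CSF1 acting through its receptor CSF1R. In a skin wound they clear debris and dying cells and release factors that act on fibroblasts, vessels and keratinocytes. They sit mainly in the dermis, while the epidermis holds a related CSF1R-dependent cell, the Langerhans cell. Several of the 10 genes are also used by other cells: Csf1 is made by stromal cells, Cd68 belongs to the lysosome, Cd14 is found on other myeloid cells, and Arg1 is an enzyme of arginine breakdown that keratinocytes can make.

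The labelled tissues were checked against their own markers. The 8 keratinocyte genes (Krt5, Krt14, Krt1, Krt10, Krtdap, Dsp, Perp and Sfn) summed to 54330 to 77690 TPM in epidermis, where TPM is a gene's length-corrected share of a library. In dermis they summed to 3163, 16670 and 614.5 TPM in replicates 1, 2 and 3. The 7 fibroblast genes summed to 44100 to 68600 TPM in dermis and 9.79 to 104.3 TPM in epidermis. Wound dermis replicate 2 thus stood apart, with the keratinocyte genes at a median of 26.2% of their epidermis mean, against 7.97% and 1.31% in replicates 1 and 3. The leukocyte genes Ptprc, Coro1a, Laptm5 and Cd53 summed to 204.7 to 393.1 TPM in dermis and 22.99 to 45.04 TPM in epidermis. TPM holds no read number, and sequencing depth is therefore unknown.

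Of the 10 markers, 9 were lower and 1, Arg1, was higher in wound epidermis than in wound dermis. Across all 15982 genes tested, 39.3% were lower and 17.0% higher by the same rule, a limma adjusted p under 0.05 (56.3% in either direction). The libraries of the tissues did not overlap for any of the 10, with 9 lower and 1 higher in epidermis, while 45.3% of all tested genes were lower and 20.8% higher without overlap (66.0% in either direction). Adgre1, Mrc1, Cd163 and Fcgr1 were below 1 TPM in every epidermis library, so they passed the filter of 1 TPM in 3 libraries through the dermis alone. For such genes, a lower level without overlap follows from the filter. The median log2 difference of the markers was -2.80, and that of all tested genes was -0.42. In bulk tissue, fewer cells of a type and less RNA per cell cannot be told apart.

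**Figure D1:**
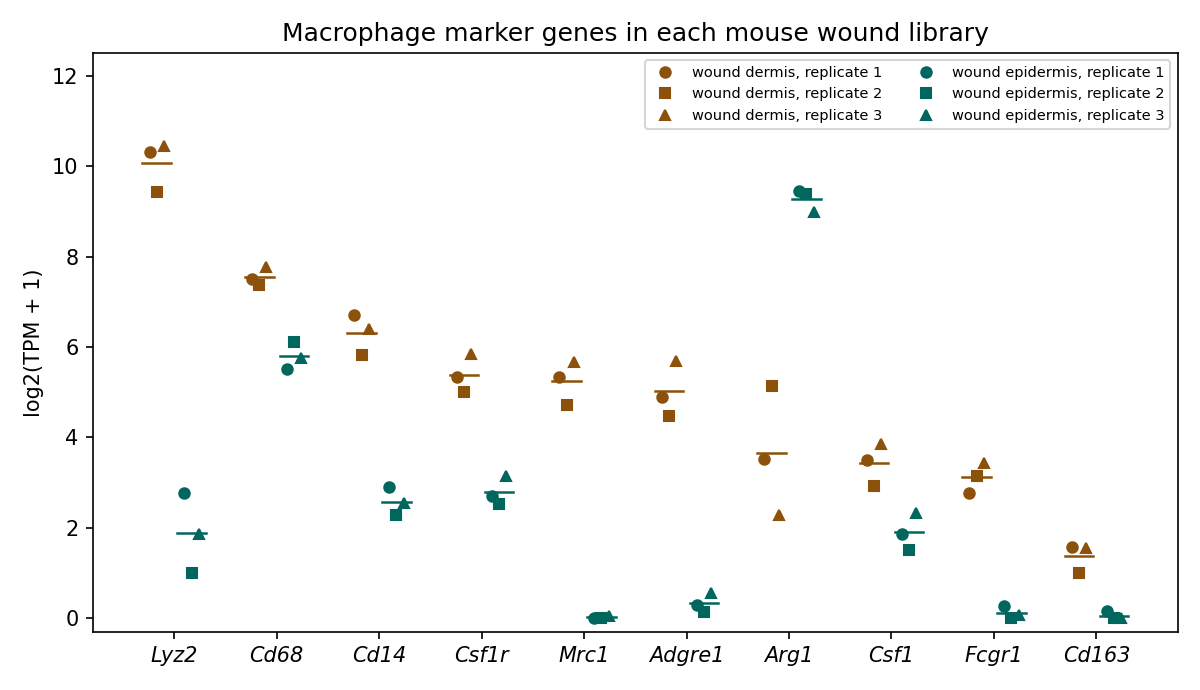
Level of each marker in each library, as log2(TPM + 1), with the markers ordered by their mean in wound dermis; symbols give the replicate, brown is wound dermis, green is wound epidermis and short bars are group means. Arg1 alone lies higher in the epidermis, and Mrc1, Adgre1, Fcgr1 and Cd163 lie near 0 there.

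The level of Lyz2 was highest of the markers in dermis and that of Arg1 in epidermis. In dermis the order by mean TPM ran Lyz2, Cd68, Cd14, Csf1r, Mrc1, Adgre1, Arg1, Csf1, Fcgr1 and Cd163. Lyz2 lay above Cd68, Cd68 above Cd14, and Fcgr1 above Cd163 in every library pairing, while all other neighbours in that order overlapped. In epidermis the order ran Arg1, Cd68, Csf1r, Cd14, Lyz2, Csf1, Adgre1, Fcgr1, Cd163 and Mrc1. There Arg1 lay above Cd68, Cd68 above Csf1r, and Csf1 above Adgre1 without overlap, and the other neighbours overlapped. Lyz2 made up 66.6% to 75.1% of the markers' summed TPM in the dermis libraries and 0.136% to 0.761% in the epidermis libraries. Arg1 made up 0.207% to 3.29% of it in dermis and 87.4% to 91.5% in epidermis.

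Adgre1 encodes F4/80, an adhesion receptor of the cell surface that is the classic marker of mouse macrophages. It stood at 28.9, 21.4 and 50.3 TPM in dermis replicates 1, 2 and 3 and at 0.22, 0.11 and 0.47 TPM in epidermis replicates 1, 2 and 3. Each epidermis library was thus below 1 TPM and each dermis library above 20 TPM. The log2 difference, epidermis minus dermis on the log2(TPM + 1) scale, was -4.69 ± 0.33 (SE, n = 3 each, limma adjusted p = 4.2e-05). This scale understates the change of a gene below 1 TPM, and the same difference was -6.55 with a pseudocount of 0.1. Adgre1 lies on chromosome 17 from 57358691 to 57483527 (GRCm38, the build called mm10, plus strand, protein-coding).

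The receptor of CSF1 and its ligand kept more of their dermal level in the epidermis. Csf1r, the receptor tyrosine kinase that macrophages need to survive, stood at 39.5, 30.9 and 56.2 TPM in dermis and at 5.53, 4.74 and 7.81 TPM in epidermis. The epidermis mean was 14.3% of the dermis mean, against 0.796% for Adgre1. The log2 difference of Csf1r was -2.60 ± 0.28 (adjusted p = 0.00033). Csf1r (chromosome 18, 61100598 to 61132149, plus strand) runs into Hmgxb3 on the opposite strand, and 873 of its 5774 annotated exonic bases are also exonic there. Hmgxb3 stood at 4.94 to 6.70 TPM in dermis and 3.66 to 5.30 TPM in epidermis, close to Csf1r in the epidermis. Without strand, which SMART-seq2 does not keep, reads that lie wholly within these shared bases fit both genes. Their part in the epidermal level of Csf1r was not tested.

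Csf1, the ligand, stood at 10.3, 6.59 and 13.5 TPM in dermis and 2.66, 1.86 and 3.99 TPM in epidermis. Dermis held 3.57 times the epidermis mean, and the groups did not overlap. Its log2 difference was -1.52 ± 0.32 (adjusted p = 0.0059), a smaller drop than that of its receptor, though the difference between these changes was not tested. Csf1 lies on chromosome 3 from 107741048 to 107760469, minus strand. Il34, the second ligand of CSF1R and one that keratinocytes make, falls outside the naming rule and was added after its values were seen. It stood at 14.98, 22.33 and 14.45 TPM in dermis and 8.36, 9.14 and 15.01 TPM in epidermis, where its libraries overlapped, and it did not pass the test (-0.64 ± 0.29, adjusted p = 0.095). Without wound epidermis replicate 3 it passed, at -0.88 (adjusted p = 0.032).

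Of the 16 genes listed for the CSF1 receptor pathway and the myeloid factors around it, 14 were tested, with 10 lower, 2 higher and 2 not called. The median log2 difference was -2.49, and among all tested genes 39.3% were lower and 17.0% higher. The lower genes included the kinase Lyn at -3.58, the adaptor Dok2 at -3.43, the monocyte transcription factor Irf8 at -3.03 and the lipid phosphatase Inpp5d at -2.53. The 2 higher genes were Cebpa at 2.41 and Cebpb at 2.34, transcription factors of myeloid cells that keratinocytes also use. Cebpb stood at 560.7 to 672.5 TPM in epidermis and 95.04 to 173.1 TPM in dermis. Csf2 and Csf3, which encode other myeloid growth factors, did not exceed 0.54 TPM in any library and were not tested.

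**Figure D2:**
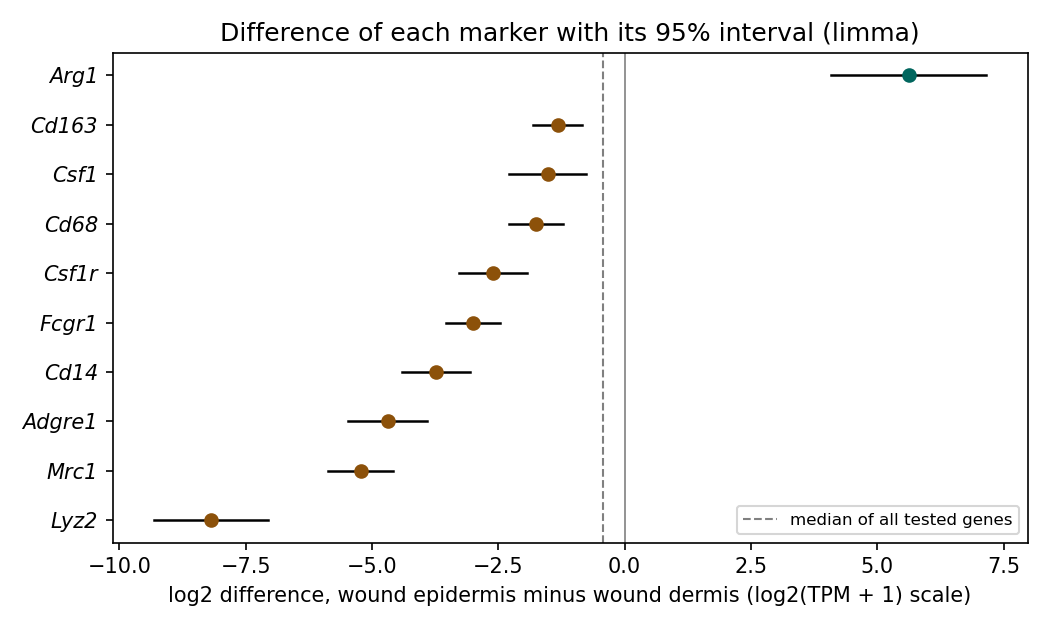
Log2 difference of each marker, wound epidermis minus wound dermis, on the log2(TPM + 1) scale, with the 95% interval from limma (3 libraries in each group); the dashed line is the median of all 15982 tested genes, at -0.42. Every interval lies clear of that line, with Arg1 to its right and the other 9 markers to its left.

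Cd68, a heavily glycosylated membrane protein of the lysosome that all phagocytes make, was the marker with the highest epidermal level after Arg1. It stood at 180.2, 164.4 and 216.8 TPM in dermis and 44.4, 68.5 and 52.9 TPM in epidermis. The epidermis mean was 29.5% of the dermis mean, the highest share among the 9 lower markers, and the log2 difference was -1.76 ± 0.23 (adjusted p = 0.00077). Cd68 lies on chromosome 11 from 69664213 to 69666153, minus strand, and no other annotated gene overlaps it.

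Of 12 other lysosomal genes tested, 6 were lower, 3 higher and 3 not called, with a median of -0.71, beside 39.3% lower and 17.0% higher among all tested genes. The cysteine proteases Ctsz, Lgmn and Ctss, which are abundant in macrophages, were lower at -4.68, -4.68 and -3.82, and Ctsb was lower at -2.46. Ctsz went from 236.7 to 376.4 TPM in dermis to 7.21 to 14.7 TPM in epidermis. Among the higher genes was the aspartic protease Ctsd at 1.25. Ctsd stood at 511.4 to 635.8 TPM in epidermis and 224.8 to 262.9 TPM in dermis.

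Lyz2 encodes lysozyme M, the antibacterial enzyme of macrophages and neutrophils. Its neighbour Lyz1 is a close copy, with 422 of 444 coding bases identical, which bears on how reads could be divided between them. Their first 86 coding bases are given below from GENCODE M21 transcripts, which list chr10:117282157-117282242 for Lyz2 and chr10:117292753-117292838 for Lyz1 (GRCm38, both minus strand, exon sequence). They run 5′ to 3′, and capitals mark the 7 bases that differ.
Lyz2: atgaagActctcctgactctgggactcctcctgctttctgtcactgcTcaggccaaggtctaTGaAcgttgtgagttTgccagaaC
Lyz1: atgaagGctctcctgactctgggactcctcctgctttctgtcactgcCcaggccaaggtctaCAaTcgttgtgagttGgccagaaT
Reads in the series were 86 or 43 bases long per the labels. Over the whole Lyz2 transcript, 20.5% of 43-base windows and 4.22% of 86-base windows also occur unchanged in Lyz1. Most windows therefore tell the copies apart, and the rest cannot.

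Lyz2 stood at 1268, 691.7 and 1388 TPM in dermis and at 5.83, 1.01 and 2.62 TPM in epidermis. The dermis mean was 353.8 times the epidermis mean, and the log2 difference was -8.18 ± 0.48 (adjusted p = 2.1e-05). On the log2(TPM + 1) scale this was the largest difference among the markers, but as a share of the dermis mean Mrc1 was lower in epidermis, at 0.0349% against 0.283% for Lyz2. Lyz1 was far lower, at 5.04, 1.31 and 3.88 TPM in dermis, and was listed at 0 in each epidermis library. Lyz2 lies on chromosome 10 from 117277331 to 117282321, minus strand.

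Mrc1 and Cd163 encode scavenging receptors of tissue-resident and repair-phase macrophages. Mrc1, the mannose receptor CD206, stood at 39.6, 25.4 and 49.7 TPM in dermis and at 0, 0 and 0.04 TPM in epidermis. It was close to Csf1r and Adgre1 in the dermis and had the lowest epidermal mean of the 10 markers. Its log2 difference was -5.22 ± 0.27 (adjusted p = 1.6e-05), or -8.37 with a pseudocount of 0.1. Cd163, the receptor that takes up haemoglobin bound to haptoglobin, was scarce in both tissues, at 1.97, 1.01 and 1.96 TPM in dermis and 0.12, 0 and 0 TPM in epidermis. Its log2 difference was -1.33 ± 0.21 (adjusted p = 0.0016), but it missed the threshold under quantile normalization at -0.64 (adjusted p = 0.097), and its dermal values lay just above the filter of 1 TPM. Mrc1 lies on chromosome 2 from 14229392 to 14332057 and Cd163 on chromosome 6 from 124304656 to 124330527, both on the plus strand.

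Of 9 tested genes listed with the scavenger and mannose receptors outside the 10, 7 were lower, none was higher and 2 were not called, with a median of -3.18. Among all tested genes 39.3% were lower and 17.0% higher. Without wound epidermis replicate 3, 1 of the 9 was higher, Hmox1, which encodes an enzyme and not a receptor. The lower genes included Colec12, a collectin receptor of vessels and stroma, at -5.44, the fatty acid receptor Cd36 at -4.82, the lipoprotein receptor Scarb1 at -3.93 and the macrophage scavenger receptor Msr1 at -3.89. Colec12, Cd36, Msr1, Marco and Clec7a were below 1 TPM in every epidermis library. These genes were tested through their dermis level alone, which set their direction. Stab1 did not share this pattern, at 131.5, 77.9 and 113.2 TPM in dermis and 66.1, 124.9 and 93.5 TPM in epidermis, with overlapping libraries (-0.19 ± 0.31, adjusted p = 0.61).

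Of 10 genes tied to repair-phase macrophages, 5 were tested, with 4 lower and 1 higher, beside 39.3% lower and 17.0% higher among all tested genes. F13a1, Folr2 and Lyve1 were below 1 TPM in every epidermis library. They were tested through their dermis level alone, which set their direction. F13a1, which encodes the A subunit of clotting factor XIII, stood at 46.2 to 62.8 TPM in dermis and 0.03 to 0.10 TPM in epidermis (-5.64). The lectin gene Clec10a was lower at -5.41, the folate receptor Folr2 at -3.06 and Lyve1 at -1.76. Il4ra, the receptor chain for interleukins 4 and 13, was higher at 0.74 (adjusted p = 0.030). That call was lost when wound dermis replicate 1 or 2, or wound epidermis replicate 1 or 3, was left out (adjusted p of 0.0948, 0.0601, 0.052 and 0.08). The alternative-activation genes Retnla and Chil3 did not exceed 2.08 TPM in any library and were not tested.

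Of 10 inflammatory macrophage genes, 7 were tested, with 6 lower, none higher and 1 not called, beside 39.3% lower and 17.0% higher among all tested genes. The co-stimulatory receptors Cd40, Cd86 and Cd80 were lower at -1.65, -1.46 and -1.13, and Il6 at -1.63. Il6, Cd80 and Il12b were below 1 TPM in every epidermis library, so the filter set their direction. Under quantile normalization only 2 of the 6, Cd40 and Cd86, were still called lower, with Cd80 at -0.29 (adjusted p = 0.25) and Il6 at -1.06 (adjusted p = 0.0505). With a filter of 5 TPM, which leaves fewer genes to test, 1 was called lower. Socs3, a feedback inhibitor of cytokine signalling, stood at 9.54 to 14.6 TPM in dermis and 9.62 to 13.9 TPM in epidermis (-0.10, adjusted p = 0.75).

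Fcgr1 encodes CD64, the high-affinity receptor for IgG. It stood at 5.88, 7.91 and 9.85 TPM in dermis and at 0.21, 0 and 0.06 TPM in epidermis, a log2 difference of -3.01 ± 0.23 (adjusted p = 5.8e-05). It lies on chromosome 3 from 96282909 to 96293969, minus strand. All 7 other genes of the Fc receptor list were tested and lower, with a median of -2.86, beside 39.3% lower among all tested genes. They included the low-affinity receptors Fcgr3 at -5.58 and Fcgr2b at -5.42, and the shared signalling chain Fcer1g at -5.32. Fcgr4, also in the list, was below 1 TPM in every epidermis library, so the filter set its direction. Fcer1g stood at 197.5 to 338.2 TPM in dermis and 3.30 to 8.71 TPM in epidermis.

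Cd14 encodes the coreceptor that passes bacterial lipopolysaccharide to TLR4. It stood at 103.4, 55.8 and 83.4 TPM in dermis and at 6.43, 3.86 and 4.88 TPM in epidermis. Dermis held 16.0 times the epidermis mean, and the log2 difference was -3.73 ± 0.29 (adjusted p = 6.5e-05). Cd14 lies on chromosome 18 from 36725067 to 36726798, minus strand. Among 9 tested partners and adaptors of this receptor, 5 were lower, 1 was higher and 3 were not called, with a median of -0.86. Among all tested genes 39.3% were lower and 17.0% higher. Tlr4 was lower at -2.18, and the adaptors Tirap and Ticam1 at -2.41 and -1.11. Of the lower genes, Tlr4 and Lbp were below 1 TPM in every epidermis library, so the filter set their direction. Traf6, a ubiquitin ligase further down the pathway, was higher at 2.50, and Irak4 was not called at -0.65 (adjusted p = 0.11). Under quantile normalization 2 of these partners were lower and 2 higher, beside 4191 lower and 4694 higher of all 15982 genes. Ticam1 lost its call there (-0.33, adjusted p = 0.179). With the filter of 5 TPM, 2 were lower, and without wound epidermis replicate 2, 2 were higher.

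Arg1, the enzyme that splits arginine into ornithine and urea and a standard marker of alternatively activated macrophages, ran against the other 9. It stood at 10.5, 34.2 and 3.88 TPM in dermis and at 701.1, 664.7 and 503.4 TPM in epidermis. The lowest epidermis library was thus far above the highest dermis library, and the epidermis mean was 38.5 times the dermis mean. The log2 difference was 5.62 ± 0.65 (adjusted p = 0.00042). It was 6.36 without wound dermis replicate 2 and 4.94 without wound dermis replicate 3 (adjusted p of 6.5e-05 and 0.00068). Arg1 lies on chromosome 10 from 24915221 to 24927484, minus strand.

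Within the dermis, Arg1 was ordered unlike the other markers. Replicate 2 held the highest Arg1 of the dermis libraries, at 5.48% of the epidermis mean, against 1.69% in replicate 1 and 0.623% in replicate 3. Each of the 8 keratinocyte genes was likewise highest in replicate 2 and lowest in replicate 3. Of the 10 markers, 8 were lowest in replicate 2, the exceptions being Arg1 and Fcgr1, and 7 were highest in replicate 3, the exceptions being Arg1, Cd14 and Cd163. The part of epidermal transcripts in the dermal Arg1 level was not tested. The spread of Arg1 over the dermis libraries, 8.81 times between highest and lowest, was wider than that of any other marker there, the next being Adgre1 at 2.35 times.

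**Figure D3:**
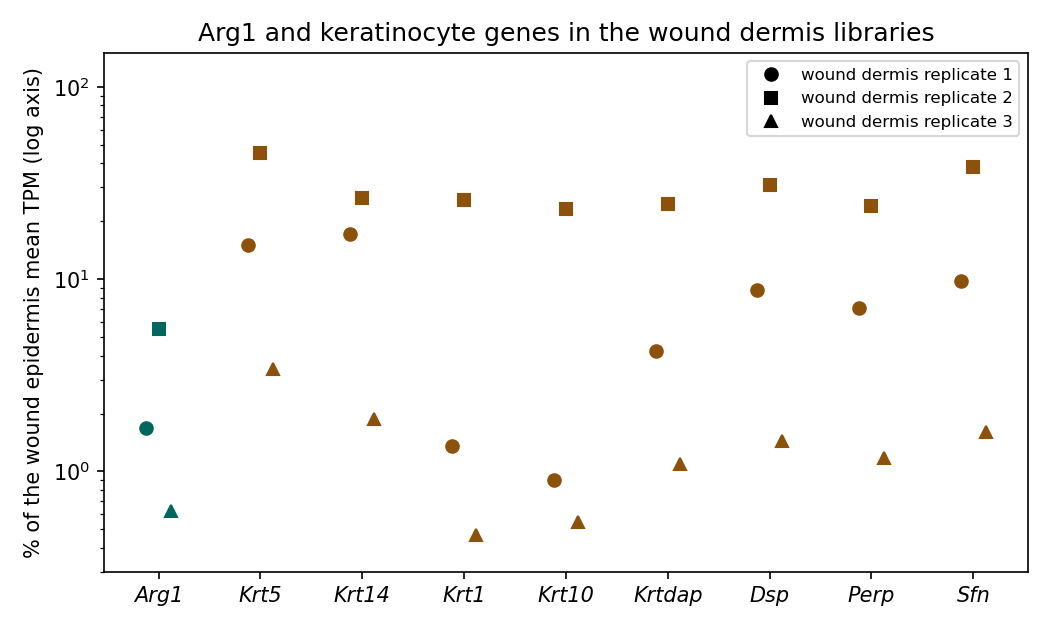
Level of Arg1 (green) and of the 8 keratinocyte genes (brown) in each wound dermis library, as a percent of that gene's mean in wound epidermis, on a log axis; symbols give the replicate. For all 9 genes replicate 2 lies highest and replicate 3 lowest, with Arg1 between 0.623% and 5.48%.

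Of 14 tested genes of arginine and polyamine metabolism, 2 were higher, 6 lower and 6 not called, with a median of -0.30. These shares lie near those of all tested genes, 17.0% higher and 39.3% lower, and after median-of-ratios scaling 4 were higher and 5 lower. The 2 higher genes were Arg2, the mitochondrial arginase, at 1.77 and Smox, which oxidizes spermine, at 1.91. Arg2 stood at 4.55 to 7.55 TPM in epidermis and 0.58 to 2.22 TPM in dermis, far below Arg1 in the epidermis. The arginine carriers Slc7a7 and Slc7a2 were lower at -3.19 and -1.69, as was Oat, which turns ornithine towards proline and glutamate, at -2.27. Both carriers were below 1 TPM in every epidermis library, so the filter set their direction. The most abundant genes of the list, Oaz1 and Amd1, were not called at -0.58 and 0.29 (adjusted p of 0.20 and 0.52), and Oaz1 was lower under quantile normalization at -1.01 (adjusted p = 0.020). Nos2, which competes with arginase for arginine, did not exceed 0.36 TPM in any library and was not tested.

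Beyond the 10 markers, 18 other macrophage genes were tested, with 17 lower, 1 higher and a median of -3.70. Among all tested genes 39.3% were lower and 17.0% higher. C1qc and C1qb, chains of the first complement component, stood at 162.2 to 292.0 and 174.5 to 309.9 TPM in dermis and did not exceed 2.07 TPM in epidermis (-6.48 and -6.42). Ms4a7, a membrane protein of macrophages, was lower at -6.60. Of the lower genes, Itgam, Mertk, Msr1, Trem2, Ly6c2 and Lyz1 were below 1 TPM in every epidermis library, so the filter set their direction.

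As shares of the dermal level, the markers spread widely in the epidermis. Among the 9 with a dermis mean of at least 5 TPM, the median share was 6.26%, from 0.0349% for Mrc1 to 3849% for Arg1. The median share was 2.18% over 15 other macrophage genes, 11.8% over the 4 leukocyte genes, 0.348% over 6 endothelial and pericyte genes and 0.0834% over 7 fibroblast genes. Over the 6 mast cell genes at that level it was 0.0203%, and 4 of the 7 mast cell genes in that list were at 0 in every epidermis library. It was 41.5% over 3 T cell genes, 65.0% over 12 lysosomal genes and 84.8% over 12 arginine and polyamine genes. Over 2 dendritic and Langerhans cell genes it was 15.4%, between Cd209a at 2.15% and H2-Ab1 at 28.6%. The Langerhans cell gene Cd207 had a dermis mean below 5 TPM and was left out there. Over 2 neutrophil genes it was 129.3%, between Csf3r at 0.857% and Cxcr2 at 257.7%, which went opposite ways. Genes enter these shares by their dermis level alone, so genes abundant in epidermis only are left out.

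Of 8 tested T cell genes 3 were lower and 5 not called, near the 39.3% lower among all tested genes. Cd4, among the lower genes, was below 1 TPM in every epidermis library, so the filter set its direction. Of 6 tested dendritic and Langerhans cell genes 5 were lower and 1, the Langerhans cell gene Cd207, was not called. Cd207 stood at 1.23, 6.98 and 3.9 TPM in dermis and 7.62, 6.96 and 14.37 TPM in epidermis. Its mean was higher in epidermis, but its libraries overlapped and it did not pass the test (limma adjusted p = 0.073). Without wound dermis replicate 2, 5 genes of the list were lower and 1 higher. The count of lower genes fell to 3 after median-of-ratios scaling or quantile normalization, with 1 higher in each. It also fell to 3 when wound dermis replicate 3, wound epidermis replicate 1 or wound epidermis replicate 2 was left out, and to 2 with the filter of 5 TPM.

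**Figure D4:**
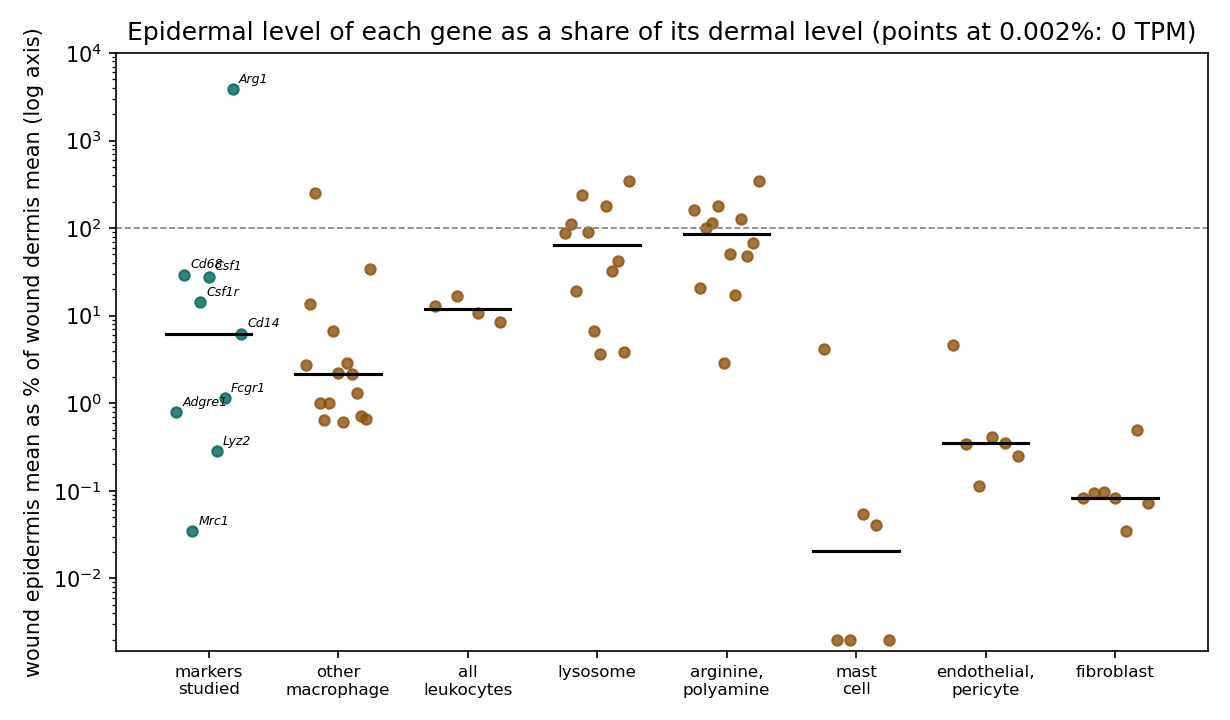
Mean level of each gene in wound epidermis as a percent of its mean in wound dermis (log axis), for genes with at least 5 TPM in dermis on average, by gene list; bars are medians, the dashed line is 100%, and genes at 0 TPM in every epidermis library are drawn at 0.002%. Mrc1, Lyz2, Adgre1 and Fcgr1 lie near or below 1%, Cd14, Csf1r, Csf1 and Cd68 between 6.26% and 29.5%, and Arg1 far above 100%.

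Each marker was also set against Ptprc, the CD45 gene carried by all leukocytes, in the same library, since the tissues differ in leukocyte transcripts. Ptprc stood at 27.4, 19.9 and 27.4 TPM in dermis and 2.23, 2.60 and 4.71 TPM in epidermis (-2.66 ± 0.28, adjusted p = 0.00028). Relative to Ptprc, the log2 difference of Lyz2 was -5.52, of Mrc1 -2.56, of Adgre1 -2.03 and of Cd14 -1.07, and for each the libraries of the tissues did not overlap. Among all tested genes 5.42% were lower without overlap on this scale. Arg1 was higher relative to Ptprc by 8.28, Cd163 by 1.33, Csf1 by 1.14 and Cd68 by 0.91, also without overlap, as were 83.8% of all tested genes (89.2% in either direction). Csf1r and Fcgr1 overlapped between the tissues, at 0.06 and -0.34.

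For Csf1r the ratio to Ptprc was 0.71 ± 0.26 in dermis and 0.77 ± 0.21 in epidermis (log2, SD, n = 3 each). The exact two-sided permutation test of 3 libraries against 3 cannot give a p below 0.10. It gave that value for the 8 markers without overlap (0.12 after Benjamini-Hochberg adjustment over the 10) and 0.50 for Csf1r and Fcgr1. For Cd163, Mrc1, Adgre1 and Fcgr1, which were below 1 TPM in epidermis, the ratio rests on the pseudocount of 1. With a pseudocount of 0.1 Cd163 turned lower, at -0.70, and Fcgr1, Adgre1 and Mrc1 stood at -2.53, -3.56 and -5.38. With that pseudocount Fcgr1 no longer overlapped between the tissues (exact permutation p = 0.10), while Cd14, at -0.97, did (exact permutation p = 0.20).

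**Figure D5:**
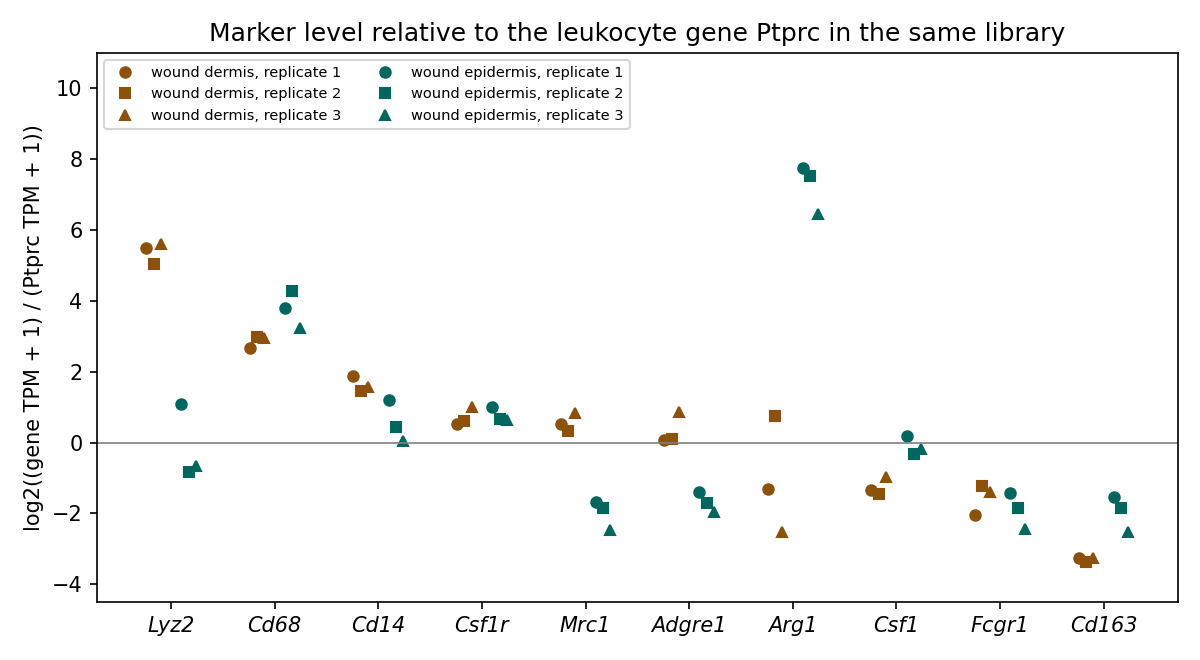
Level of each marker relative to Ptprc in the same library, as log2((gene TPM + 1) / (Ptprc TPM + 1)), with wound dermis in brown, wound epidermis in green and symbols for the replicate. Csf1r sits at the same height in both tissues, Lyz2, Mrc1, Adgre1 and Cd14 drop in epidermis, and Arg1 rises to between 6.47 and 7.76.

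The genes whose pattern over the 6 libraries lay closest to a marker were found by the root mean square difference of log2(TPM + 1), centred on each gene's mean. With only 2 tissues, this measure mostly reads the size of the tissue difference and the order of the dermis libraries. For Adgre1 they were Tfpi, Snhg18 and Sbspon (0.103, 0.112 and 0.135), and for Mrc1 they were Fkbp10, C1qtnf6 and Srpx2 (0.0453, 0.0495 and 0.0872). Csf1 had Mettl21a, Asb3 and Ptpn6 (0.041, 0.103 and 0.112), and Cd14 had Lamc1, Socs2 and Lgr5 (0.121, 0.165 and 0.176). The genes nearest to Arg1 lay further off and were Degs2, Car6 and Serpinb11 (0.524, 0.551 and 0.601). Degs2, an enzyme of ceramide synthesis, stood at 11.1, 68.1 and 1.77 TPM in dermis and 688.2, 593.9 and 526.1 TPM in epidermis, with the same library order as Arg1 in both tissues.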

How the data were processed

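The authors deposited 1 TPM (transcript abundance scaled to a fixed total) per gene and library. Per the submitters' processing notes, the tools were RSEM 1.2.31 and Bowtie 1.0.0 and the mouse build mm10; the sources used here do not give the annotation. Per the labels' protocols, 10 ng or 100 ng of RNA was copied and reads were 86 or 43 bases, without a statement of which library had which. As TPM is a share, a change in the most abundant genes moves every other value, and the read depth is unknown.

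Ensembl rows were paired with GENCODE M21 symbols (49289 of 49548). The test was limma 3.58.1 (R 4.3.3) with its mean-variance trend, fitted to log2(TPM + 1) of the 15982 genes that reached 1 TPM in 3 or more of the 6 libraries, with Benjamini-Hochberg adjustment at 0.05. A gene below 1 TPM in every epidermis library entered the test through the dermis alone, so the filter set its direction. The script was tested on simulated data. Ratios to Ptprc used an exact permutation test. Alternatives were other pseudocounts, filters, scalings, the untrended fit, the replicate number as a block, and each library left out with the tested genes held fixed.

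The markers and lists were chosen with earlier results of these data known. Genes named from a pathway list are up to 4 with the smallest adjusted p, the 2 most abundant and those called against the majority. Genes too low to test, Il34, Lyz1, Hmgxb3, Hmox1 and Cd207 were added outside this rule after their values were seen. So were genes named only for lying below 1 TPM in every epidermis library. Most genes of the T cell, B cell, neutrophil, dendritic, mast cell, erythroid, adipocyte and stromal lists are given as counts and sums. Some genes that this rule names are not reported here.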

Additional observations from a re-analysis of the deposited data

How the results depend on the processing

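All 9 lower markers and Arg1 kept their direction in every alternative that tested them. They kept their side of the threshold too, except Cd163 under quantile normalization (-0.64, adjusted p = 0.097). Cd163 was not tested with a filter of 5 TPM. For Adgre1, Mrc1, Cd163 and Fcgr1 the filter of 1 TPM had set the direction, so its being kept is no further support. Across alternatives the adjusted p of Csf1 reached 0.048 and that of Arg1 0.0035. The number of genes higher in epidermis was 2721, 4342 when libraries were scaled by median-of-ratios and 4694 when quantile-normalized; these moved the share of called genes that were higher from 30.2% to 47.2% and 52.8%, and the median of all genes from -0.42 to -0.03 and 0.08. Leaving out 1 library at a time, 2124 to 2791 genes were higher and 5291 to 6376 lower, with 9 markers lower and 1 higher each time. In the ratio to Ptprc, 8 to 9 markers did not overlap with a library left out, against 8, and 7 with a pseudocount of 0.1. Reversed values were Cd163 relative to Ptprc (-0.70 with a pseudocount of 0.1) and, among differences that never passed, Csf1r relative to Ptprc (-0.0393 without wound dermis replicate 1, -0.0618 without wound epidermis replicate 1; -0.0618 to 0.21 over libraries left out), Stab1 (0.28 after median-of-ratios scaling, 0.0404 without wound epidermis replicate 1; -0.414 to 0.0404 over libraries left out) and Socs3 (0.34 after median-of-ratios scaling, 0.42 after quantile normalization, 0.0342 without wound dermis replicate 1, 0.0034 without wound epidermis replicate 1; -0.249 to 0.0342 over libraries left out); the cause was not tested. Same-numbered libraries of the 2 tissues deviated from their group means with correlations across genes of -0.14, 0.09 and 0.19, so the numbers were not taken as pairs. With the replicate block 2464 genes were higher and 5940 lower, with 9 markers lower and 1 higher. TPM without read numbers gives no counting error for values below 1 TPM, such as Mrc1, Adgre1, Fcgr1 and Cd163 in epidermis.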

Other observations

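Of the 10 neutrophil genes 2 were tested, and they split, with Csf3r lower and Cxcr2 higher in epidermis. Csf3r was below 1 TPM in every epidermis library, so the filter set its direction. Cxcr2 stood at 9.80, 11.2 and 13.01 TPM in dermis and 27.0, 31.9 and 28.8 TPM in epidermis, while the neutrophil genes Ly6g and Elane were listed at 0 in all 6 libraries. The 3 adipocyte genes summed to 0.33 to 0.61 TPM in every library.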
